A study of Arabidopsis thaliana with 48 samples.

Results

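The genes described here are 184 Arabidopsis genes that stood higher in seedlings under high light (HL) and lower in seedlings under heat stress (HS) than in unstressed Control seedlings. They were chosen from the normalised counts by one rule: a mean of at least 50 over the 48 libraries, a mean of the 3 HL libraries at least 1.5 times the Control mean, and a mean of the 3 HS libraries at most the Control mean divided by 1.5. The rule took 184 of 19244 genes with that mean (0.956%) and of 32833 genes in the table. On their own, the HL limit was met by 3459 genes and the HS limit by 2017. The study asked how wild-type Col-0 seedlings respond when stresses are stacked, and sequenced RNA from whole seedlings of 16 groups with 3 biological replicates each, a replicate being a pool of at least 100 seedlings. Salt seedlings grew on plates with 50 mM NaCl, PQ seedlings on plates with 0.05 µM paraquat, a herbicide that draws electrons from photosystem I and makes superoxide, and Salt + PQ seedlings on both. Seedlings 10 days old were then given HL (700 µmol m-2 s-1), HS (33°C), or both for 1.5 h, on each kind of plate, which gives every combination of the 4 stresses, named by its parts (Salt + PQ + HL, for example). Groups without HL stayed at 50 µmol m-2 s-1, groups without HS at 21°C, and Control seedlings had none of the 4 stresses.

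Plants under strong light make sunscreens and antioxidants: flavonols and anthocyanins, which are built from phenylalanine through the phenylpropanoid pathway, chlorophyll-binding early light-induced proteins (ELIPs), and peroxidases of the chloroplast. Light receptors drive these genes through the bZIP factors HY5 and HYH and through MYB factors, with repressors such as the SPA and RUP proteins as brakes. Warmth is known in Arabidopsis seedlings to lower anthocyanin pigment and the genes of its last steps. Under heat itself the main response is another one, in which heat shock factors turn on chaperones such as HSP101.

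The libraries held 67888254 to 87569857 reads (median 76882710), and no member had fewer than 1 read in any library. Levels below are normalised counts, meaning reads divided by one size factor per library, and they compare one gene between groups, not one gene with another, since they are not divided by gene length. Leaf markers (RBCS1A, LHCB1.3, CAB2, RCA and PSBO1) and root markers (PYK10, SCR and 7 others) were both read in every group, as whole seedlings hold both organs, though the root marker NRT2.1 was near 0 throughout. The summed 9 root markers ranged from 52776 in HL + HS to 270146 in PQ + HL + HS, against 185161 to 195973 in Control, and the summed 5 leaf markers from 1902300 in Salt + HL to 3861220 in HL + HS. The place of HL + HS in leaf markers depends on the scaling described next. Its leaf sums were 3634830 to 3861220 on normalised totals of 114374000 to 116427000. Those of Control were 2892540 to 3084560 on totals of 62832100 to 64244100, a larger part of the total. The part of these marker shifts in the results was not tested, and in whole seedlings fewer cells of a type and less RNA per cell cannot be told apart. In the 4 groups richest in heat-shock transcripts (Salt + HL + HS, PQ + HS, HL + HS and Salt + PQ + HS) the normalised totals are above those of the other groups. Giving all libraries one total instead lowers the median of all genes against Control by 0.81, 0.64, 0.85 and 0.77 on the log2 scale in those 4 groups, by 0.29 in PQ, 0.21 in HL, 0.19 in Salt and in Salt + PQ, 0.12 in PQ + HL and 0.11 in Salt + HS, and by less than 0.1 elsewhere. Where this turns a count round, both counts are given. The shares over all genes beside them are those with the size factors only. They are no background for the counts with the same total.

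Several libraries stood apart from their labels in the heat-shock genes, a list of 11 genes (HSP101, HSFA2, HSP21 and others), none of them among the 184. These genes took 0.00734% to 0.00767% of reads in the libraries labelled PQ + HL + HS and 0.00696% to 0.00743% in those labelled Salt + PQ + HL + HS, against 0.00764% to 0.00788% in Control, although both labels include 33°C. They took 0.892% to 0.923% in the libraries labelled Salt, 1.72% to 1.76% in those labelled PQ and 0.563% to 0.576% in those labelled Salt + PQ, against 0.228% to 0.232% in HS. The same was so in 3 groups with light stress: 0.962% to 0.989% in HL, which the rule used, 0.795% to 0.858% in PQ + HL and 0.255% to 0.261% in Salt + HL. All 6 of these groups are at 21°C by label. Groups are named below as they are labelled, and no library was moved. Of the 12 comparisons that use no HL, HS or Control library, only Salt + HL + HS against Salt + HS uses none of these 8 groups. A fit without 5 of them (the first 5 named above) was added after the data were seen, and it kept HL, PQ + HL and Salt + HL. Salt + PQ + HL lay near Control over all genes, with 3.87% of 19244 genes at least 1.5 times Control and 2.86% at most Control divided by 1.5. The shares were 2.18% and 1.43% in PQ + HL + HS and 3.55% and 3.38% in Salt + PQ + HL + HS, against 18.0% and 14.1% in HL. Heat-shock genes took 0.00812% to 0.00839% of reads in Salt + PQ + HL. The part of these profiles in the comparisons was not tested.

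In the groups that chose them, the members had a median of 2.47 times the Control mean in HL (range 1.50 to 13.4) and of 0.564 times in HS (range 0.0639 to 0.664). These values made the list and are given as a description. For 183 of the members the 3 HL libraries all lay above the 3 Control libraries, and for 183 the 3 HS libraries all lay below them. Nearest the HL limit stood SPA4 (1.502 times Control) and AT5G41460 (1.510) inside it and AT1G76530 (1.498) and AT5G52330 (1.495) outside it. Nearest the HS limit, with Control over HS, stood DML3 (1.505) and CAD6 (1.514) inside and AT5G50360 (1.498) and RD29A (1.496) outside. The mean level of a member over all libraries ranged from 50.9 to 80968 with a median of 596.

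Over the 16 groups the 184 genes were far from a single block. The highest group mean was in HL for 111 members, in PQ for 44 and in Salt + HL + HS for 15, and the lowest in HS for 81, in HL + HS for 27, in Salt + PQ + HL + HS for 21 and in Salt + HL for 17. Control was the highest or lowest group for none of them, which the rule fixes. The median over members of the log2 ratio to Control in the 3 libraries of each group was 1.27 to 1.31 in HL, 1.13 to 1.18 in PQ and 0.61 to 0.62 in Salt. It was 0.43 to 0.46 in Salt + PQ, and -0.87 to -0.82 in HS. Replicates lay within 0.11 of each other in every group.

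**Figure D1:**
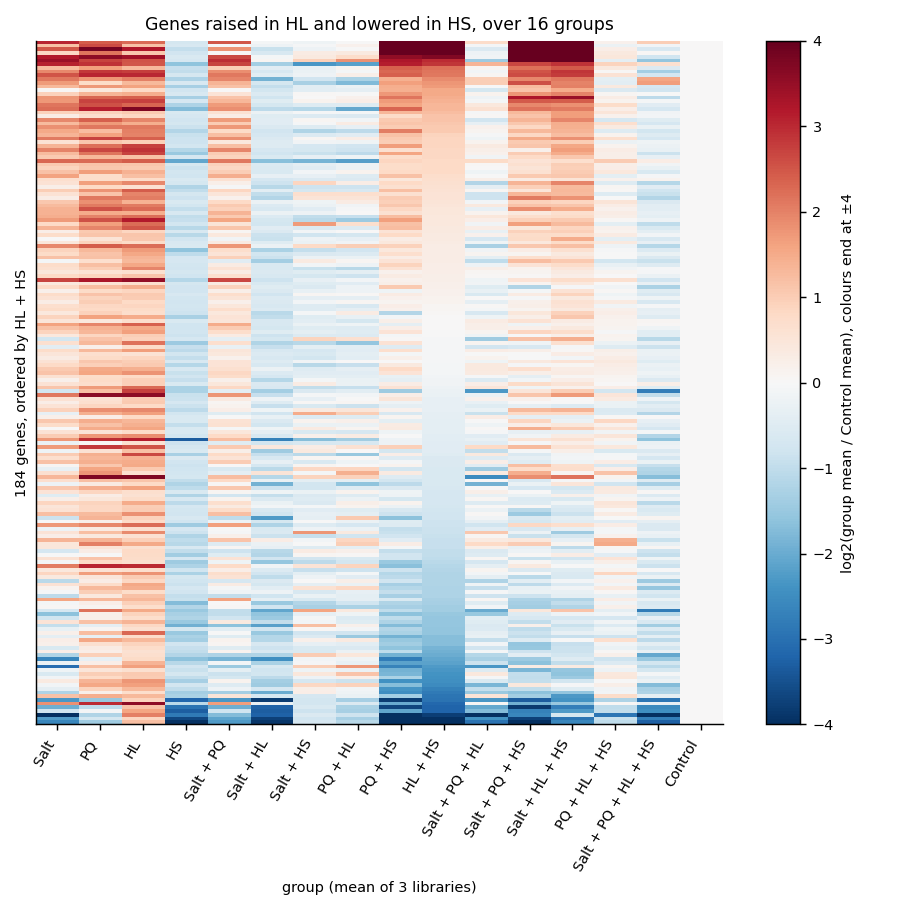
Each row is 1 of the 184 genes and each column 1 of the 16 groups as labelled, with Control at the right. Colour gives the log2 ratio of the group mean to the Control mean (n = 3 libraries each, colours end at ±4). Genes are ordered by HL + HS, from higher to lower than Control. The HL column is red and the HS column blue throughout because the rule chose them so, while the groups with both range over both colours.

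**Figure D2:**
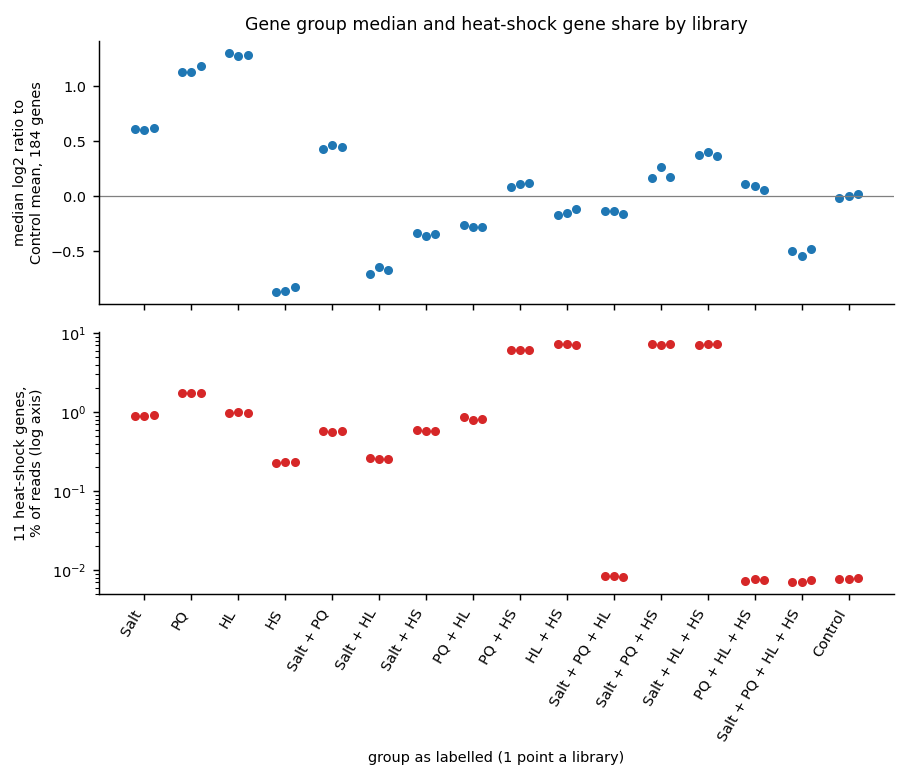
Upper panel, the median over the 184 genes of the log2 ratio to the Control mean, 1 point for each of 48 libraries. Lower panel, the percent of reads in 11 heat-shock genes on a log axis. The libraries labelled PQ + HL + HS and Salt + PQ + HL + HS sit at the Control level of heat-shock genes, and 6 groups labelled 21°C (Salt, PQ, Salt + PQ, HL, Salt + HL and PQ + HL) sit above HS.

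Genes of flavonoid synthesis held the largest share of members of the 17 lists. Of 15 listed enzymes, 14 had a mean of at least 50 and 11 were members: CHS, CHI, CHIL, FLS1, UGT78D2, 4CL3, DFR, LDOX, UGT79B1, 5MAT and GSTF12. Of 16 listed regulators of flavonoids and light responses, 13 were measured at that level and MYB75 and HYH were members. Photoprotection gave ELIP2 and GPX7 of 10, cold response CBF3 and COR15B of 17, camalexin and indole glucosinolates PAD3 of 10 measured, and pattern-triggered immunity FRK1 of 16. No member came from the lists of jasmonate, salicylic acid, aliphatic glucosinolate, sulfate assimilation, membrane desaturase, cytokinin response regulator, circadian clock, nucleolus, heat-shock, leaf or root marker genes. In all, 19 members were on a list.

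A shared letter pattern near several of these genes is shown because flavonoid and light-induced genes are known to be bound by HY5-type bZIP factors at ACGT cores. The 250 bases before the annotated gene start were read from the RefSeq genome TAIR10.1 for 183 of the 184 members, 5′ to 3′ on the gene's strand, and capitals mark CACGTG (the G-box) and GACGTG or CACGTC (searched on both strands, as were the motifs below).
CHS (chr5:4488226-4488475, plus strand): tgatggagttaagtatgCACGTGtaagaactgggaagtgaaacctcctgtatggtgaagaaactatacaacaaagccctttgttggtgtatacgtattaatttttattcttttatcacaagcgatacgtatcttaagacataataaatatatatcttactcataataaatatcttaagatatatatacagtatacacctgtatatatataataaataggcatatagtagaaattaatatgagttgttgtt
CHIL (chr5:1563036-1563285, plus strand): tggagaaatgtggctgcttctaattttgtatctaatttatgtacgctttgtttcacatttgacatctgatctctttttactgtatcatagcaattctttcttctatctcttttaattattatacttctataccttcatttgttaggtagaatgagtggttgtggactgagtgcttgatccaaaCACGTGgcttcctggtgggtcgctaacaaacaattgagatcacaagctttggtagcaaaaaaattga
DFR (chr5:17166033-17166282, minus strand): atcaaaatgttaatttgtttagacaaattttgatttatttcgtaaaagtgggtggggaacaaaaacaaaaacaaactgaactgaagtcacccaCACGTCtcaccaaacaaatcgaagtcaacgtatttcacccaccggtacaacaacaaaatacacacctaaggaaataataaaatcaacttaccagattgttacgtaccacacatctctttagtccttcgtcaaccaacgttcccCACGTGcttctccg
UGT79B1 (chr5:21938397-21938646, minus strand): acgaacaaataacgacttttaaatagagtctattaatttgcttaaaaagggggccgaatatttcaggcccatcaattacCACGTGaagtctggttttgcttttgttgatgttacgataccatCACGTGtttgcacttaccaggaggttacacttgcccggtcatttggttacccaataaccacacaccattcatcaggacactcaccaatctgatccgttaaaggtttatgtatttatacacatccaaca
PHR1 (chr1:4209000-4209249, minus strand): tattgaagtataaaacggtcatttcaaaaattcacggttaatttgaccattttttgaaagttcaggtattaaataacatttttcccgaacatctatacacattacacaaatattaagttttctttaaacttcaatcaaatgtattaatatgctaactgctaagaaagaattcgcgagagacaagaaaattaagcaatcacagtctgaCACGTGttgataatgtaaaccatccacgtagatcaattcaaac
MIPS2 (chr2:9454301-9454550, minus strand): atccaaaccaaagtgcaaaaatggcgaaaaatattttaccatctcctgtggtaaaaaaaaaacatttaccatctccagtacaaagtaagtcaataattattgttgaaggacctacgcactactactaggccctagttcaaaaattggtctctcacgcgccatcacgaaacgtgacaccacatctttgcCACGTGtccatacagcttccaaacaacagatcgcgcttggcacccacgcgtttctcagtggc
The first 4 are flavonoid enzymes, PHR1 a photolyase, and MIPS2 an inositol synthase described below. CACGTG stood in this window for 27 of 183 members (14.8%), 7.60% of genes with a mean of at least 50 and 6.49% of all genes, and GACGTG or CACGTC for 20 members (10.9%), 6.40% and 5.89%. One or the other stood in 42 members. The window of ELIP2 and that of FLS1 held neither. The windows printed above are all ones with a match. Among the 11 flavonoid enzymes of the members, only the 4 printed had one. No match was found for the others, CHI and LDOX among them, nor for the regulators HYH and MYB75. Other motifs stood in the members at close to their share in genes with a mean of at least 50: the W-box (TTGACC or TTGACT) in 30.6% and 28.2%, the heat element (GAANNTTC) in 9.84% and 9.28%, and the DRE core (CCGAC) in 13.7% and 13.1%. The site II element (TGGGCC or TGGGCT) stood in 6.56% of members and 22.3% of those genes. A match in these letters is a description of the window and not a bound site.

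The 11 flavonoid enzymes were put in 2 sets, a division made after their values were seen. CHS (chalcone synthase, the entry step), CHI, CHIL (a chalcone isomerase-like helper of CHS) and 4CL3 (which supplies coumaroyl-CoA) are early steps that flavonols and anthocyanins share. They were put with FLS1 (flavonol synthase) and UGT78D2 (a flavonoid glucosyltransferase). These 6 are called the flavonol side below, as a label and not as a separate branch. DFR, LDOX, UGT79B1, 5MAT and GSTF12 take the branch to anthocyanins, by reduction, oxidation, sugar and malonyl transfer, and carriage to the vacuole. Set against Control, the 6 flavonol-side genes had a median log2 ratio of 1.31 in Salt (range 0.97 to 1.45), 1.86 in PQ (1.60 to 2.15) and 1.03 in Salt + PQ (0.83 to 1.21). The 5 anthocyanin-side genes had -2.23 in Salt (-2.62 to -0.78), -1.02 in PQ (-1.52 to -0.08) and -2.12 in Salt + PQ (-2.32 to -0.79). HL was the only group of the 15 stressed ones in which any of the 5 had a mean above Control, with -3.20 in HL + HS, -3.74 in Salt + HL, -1.31 in PQ + HL and -0.73 in Salt + HS, and this held with one total for all libraries. The flavonol side was below Control in all 6 genes in HS, Salt + HL, Salt + HS, PQ + HL and Salt + PQ + HL + HS. All 6 were above Control in PQ + HS (median 1.22, range 0.58 to 1.57) and Salt + HL + HS (1.05, range 0.16 to 1.48), though with the same total 5 were in PQ + HS (median 0.57) and 4 in Salt + HL + HS (0.22). In HL + HS, 5 of the 6 were above Control (median 0.50), but with the same total only 1 was (median -0.37).

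**Figure D3:**
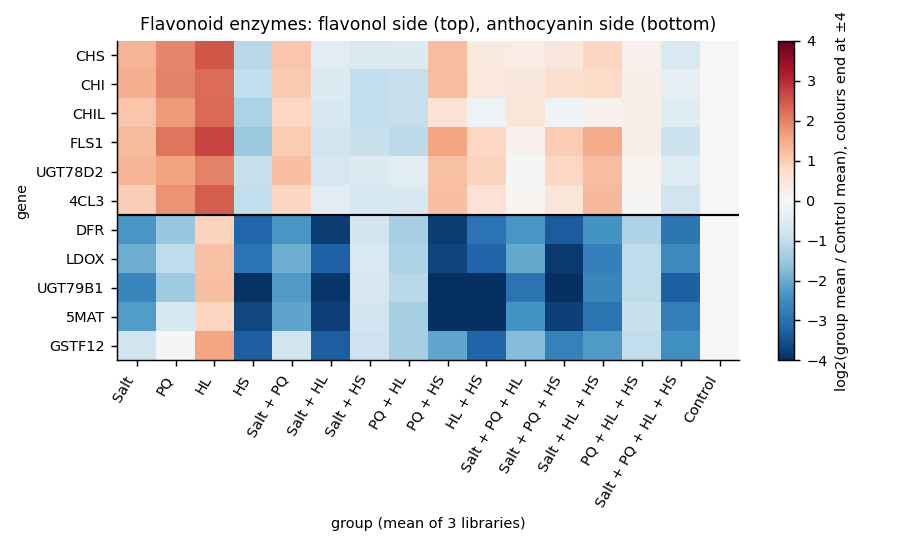
Rows are the 11 flavonoid enzymes among the members. Above the line are the 6 genes called the flavonol side, which include early steps shared with anthocyanins, and below it the 5 anthocyanin-side genes. Columns are the 16 groups as labelled, and colour is the log2 ratio of the group mean to the Control mean (n = 3 each, colours end at ±4). Below the line only the HL column is red, while above it all 6 genes are also above Control in PQ, Salt, Salt + PQ, PQ + HS, Salt + HL + HS and, by less, PQ + HL + HS.

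CHS and DFR show the 2 sets library by library. CHS had 62747, 63406 and 67290 normalised counts in HL, 47526, 39416 and 46630 in PQ, and 30217, 29801 and 29122 in Salt, against 10713, 11459 and 12688 in Control. DFR had 887, 865 and 1146 in HL, 207, 181 and 153 in PQ, and 83.2, 103 and 127 in Salt, against 525, 506 and 525 in Control. The HL, PQ and Salt libraries of CHS were all above those of Control, and for DFR those of HL were above and those of PQ and Salt below. In Salt + HL, CHS had 7913, 8910 and 8636, with no overlap with Salt, and fell by 1.81 ± 0.08 on the log2 scale (SE, n = 3 each, limma, adjusted p = 2.02e-24). In PQ + HL, with 7680, 8148 and 8138, it was lower than in PQ by a log2 difference of -2.47 ± 0.08 (limma, adjusted p = 2.36e-29). In Salt + HL + HS, with 20434, 20738 and 21963, CHS was higher than in Salt + HS (6991, 7807 and 8399; log2 difference 1.45 ± 0.08, limma, adjusted p = 2.33e-21) and higher than in Salt + HL (1.31 ± 0.08, adjusted p = 6.87e-20, limma). FLS1 had 8695, 8139 and 9058 there, against 1582, 1702 and 1787 in Salt + HS, and a log2 difference of 2.35 ± 0.08 (limma, adjusted p = 4.33e-28). DFR went the other way against Salt + HS, with 124, 64.5 and 107 in Salt + HL + HS and 267, 343 and 328 in Salt + HS, a log2 difference of -1.70 ± 0.22 (limma, adjusted p = 2.72e-09).

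With heat added, DFR and LDOX both rose on salt plates and both fell on paraquat plates. DFR rose in Salt + HS (267, 343 and 328), against 83.2, 103 and 127 in Salt, with a log2 difference of 1.59 ± 0.22 (limma, adjusted p = 2.76e-08). It fell in PQ + HS (40.2, 32.7 and 39.0), against 207, 181 and 153 in PQ, by 2.24 ± 0.22 on the log2 scale (limma, adjusted p = 2.41e-12). LDOX (anthocyanidin synthase) did likewise, with 1.35 ± 0.33 (limma, adjusted p = 0.000359) on Salt and -2.61 ± 0.33 (limma, adjusted p = 1.71e-09) on PQ. MYB75, the MYB factor PAP1 that drives the anthocyanin branch, had 67.9, 75.5 and 76.7 in PQ + HS, against 477, 419 and 456 in PQ (log2 difference -2.60 ± 0.16, limma, adjusted p = 8.46e-19). In HL it had 1300, 1255 and 1338, against 217, 151 and 221 in Control. In Salt + HL + HS, MYB75 had 429, 393 and 342, above all Salt + HS libraries (138, 97.2 and 160), whereas DFR was lower there than in Salt + HS.

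Phenylpropanoid supply genes lay within a narrower range than the flavonoid enzymes. PAL1, PAL2 and PAL4 (phenylalanine ammonia-lyases, the entry step), 4CL1, ADT5 (an arogenate dehydratase of phenylalanine synthesis) and ATCAD4 (a lignin enzyme, CAD4) had a median log2 ratio to Control of 0.71 in HL, 0.65 in PQ and 0.39 in Salt. That median was -0.80 in HS, -0.67 in HL + HS and -0.58 in Salt + HL + HS. PAL4, 4CL1 and ADT5 were picked after their values were seen. PAL1 had 8536, 9538 and 9267 in Salt + HS, against 24686, 23542 and 24286 in Salt, and fell by 1.41 ± 0.05 on the log2 scale (limma, adjusted p = 9.59e-28). In Salt + HL + HS it had 14492, 14456 and 15425, a log2 difference of 0.70 ± 0.05 over Salt + HS (limma, adjusted p = 1.75e-17), which is -0.02 with the same total.

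ELIP2, which binds chlorophyll freed in strong light, had the largest ratio of HL to HS, 89.3. Its levels were 12178, 11770 and 11832 in HL, 126, 117 and 158 in HS, 10680, 9388 and 11188 in PQ, 4733, 4702 and 4054 in Salt, 2781, 3664 and 3090 in Salt + PQ, and 1192, 1467 and 1368 in Control. The next highest groups after HL were thus labelled with growth light at 21°C. Where HL was added to a plate stress without heat, ELIP2 was lower: 189, 217 and 215 in Salt + HL (log2 difference -4.44 ± 0.13 against Salt, limma, adjusted p = 8.5e-31), and 509, 508 and 532 in PQ + HL (-4.33 ± 0.13 against PQ, limma, adjusted p = 2.72e-30). With heat added it was lower in Salt + HS (416, 389 and 427) than in Salt by a log2 difference of -3.45 ± 0.13 (limma, adjusted p = 1.64e-26), and in PQ + HS (1015, 1171 and 1318) than in PQ by -3.16 ± 0.13 (limma, adjusted p = 1.42e-25). In Salt + HL + HS it had 2179, 2001 and 1965, a log2 difference of 2.32 ± 0.13 over Salt + HS (limma, adjusted p = 7.24e-21) and of 3.30 ± 0.13 over Salt + HL (limma, adjusted p = 1.35e-26). GPX7, a glutathione peroxidase of the chloroplast, had a like profile: 5318, 5085 and 5244 in HL, 217, 229 and 177 in HS and 479, 457 and 437 in Control. It rose in Salt + HL + HS over Salt + HS by a log2 difference of 1.08 ± 0.08 (limma, adjusted p = 5.34e-16) and over Salt + HL by 1.58 ± 0.08 (limma, adjusted p = 1.03e-21).

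Light signalling genes and photolyases among the members included HYH (the HY5 homolog), RUP2 (a repressor of the UV-B receptor UVR8), SPA4 (a partner of the COP1 ubiquitin ligase), PHR1 (a photolyase that repairs pyrimidine dimers) and CRY3 (a cryptochrome with photolyase activity in organelles). These 5 are not a full set. BBX32, described below, is outside it, with a log2 difference of 3.18 in Salt against Control and of -2.78 in Salt + HS against Salt. RUP2, PHR1 and CRY3 were picked after their values were seen. All 5 were above Control in HL, PQ, Salt and Salt + PQ, with medians of 1.14, 1.11, 0.81 and 0.68 on the log2 scale, and all 5 below it in HS, Salt + HL and Salt + HS. In HL + HS 3 of the 5 were above Control, and none with the same total. HYH had 5113, 5088 and 5169 in HL, 5132, 5307 and 5292 in PQ and 5060, 4776 and 4841 in Salt, against 1843, 1873 and 1866 in Control. The HL and PQ libraries overlapped in HYH. It had 1639, 1604 and 1581 in Salt + HS and fell against Salt by 1.60 ± 0.04 on the log2 scale (limma, adjusted p = 4.66e-31).

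**Figure D4:**
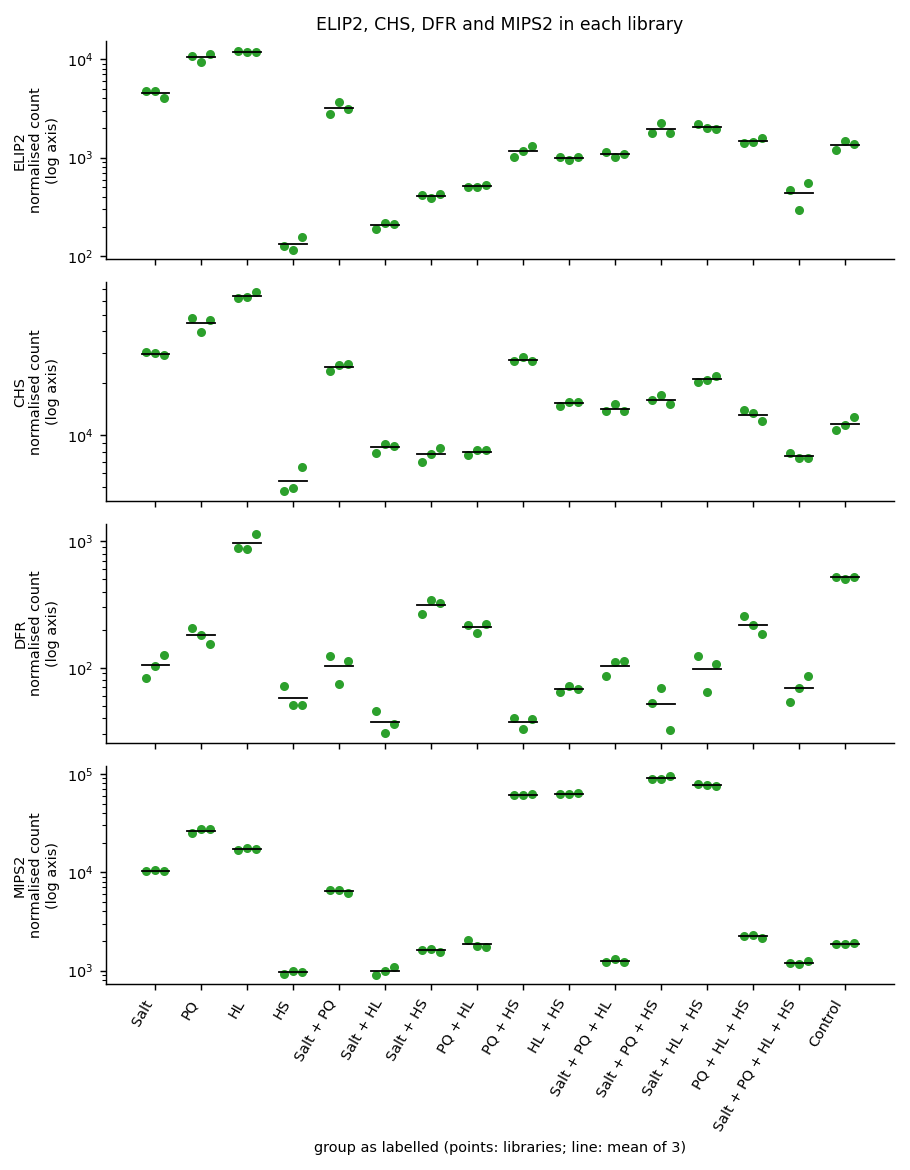
Normalised counts of ELIP2, CHS, DFR and MIPS2 on log axes in each of 48 libraries (points) with the mean of 3 (lines), by group as labelled, Control at the right. The highest means of ELIP2 are in HL, PQ, Salt and Salt + PQ, and those of CHS in HL, PQ, Salt, PQ + HS and Salt + PQ. DFR is above Control in HL alone, and MIPS2 is highest in the 4 groups richest in heat-shock transcripts.

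By normalised counts, a further few members had higher group means than in HL in all 4 groups richest in heat-shock transcripts. MIPS2, which makes inositol phosphate from glucose 6-phosphate, had 62047, 62719 and 63268 in HL + HS and 79435, 77972 and 75728 in Salt + HL + HS, with 16968, 17527 and 17156 in HL, 919, 992 and 966 in HS and 1849, 1844 and 1904 in Control. The gene was thus below every Control library in HS and above every HL library in HL + HS. Salt + HL + HS was higher by a log2 difference of 5.59 ± 0.05 than Salt + HS (1634, 1666 and 1540; limma, adjusted p = 5.31e-51) and of 6.28 ± 0.05 than Salt + HL (913, 998 and 1084; limma, adjusted p = 1.39e-53). MIPS2 rose in PQ + HS (60639, 61323 and 62932), against 24961, 27224 and 27278 in PQ, by 1.22 ± 0.05 (limma, adjusted p = 5.91e-26), and was lower in PQ + HL + HS (2238, 2326 and 2153) than in PQ + HS by -4.78 ± 0.05 (limma, adjusted p = 1.63e-49). PTR5 (a peptide transporter) had 11746, 12236 and 11978 in HL + HS, against 202, 210 and 207 in Control, AT1G70640 (a PB1 domain protein) averaged 1553 in HL + HS and 23.0 in Control, and BBX32 (a B-box protein that damps light responses) 4897 in HL + HS and 376 in Control, with 3875 in HL. PTR5, AT1G70640 and BBX32 were picked after their values were seen, and each stayed above Control in HL + HS with the same total. For BBX32 the place above HL depends on the scaling. Normalised totals were 114374000 to 116427000 in HL + HS and 73176500 to 73638200 in HL, so with the same total BBX32 is higher in HL. MIPS2 overlaps 2 other annotated genes, and of the members 52 overlap at least 1 (COR15B, GPX7, P5CS1, PTR5, BBX32, PHR1, ProT3, GSTF12 and AT3G24750 among those named). No strand is stated for the counting, so their reads cannot be told apart from those of the overlapping gene.

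Among the other members the cold-response gene COR15B, whose product protects chloroplast membranes, had 7534, 7119 and 7193 in HL, 760, 744 and 798 in HS, and 1791, 1808 and 1793 in Control. It was lower in Salt + HL (445, 485 and 525) than in Salt (7961, 7944 and 7441), with no overlap, and higher in Salt + HL + HS (7932, 7556 and 7898) than in Salt + HL by a log2 difference of 4.01 ± 0.05 (limma, adjusted p = 3.78e-46). CBF3, an AP2 factor that turns on COR genes, was higher in Salt + HL + HS (228, 189 and 214) than in Salt + HS (22.1, 27.6 and 15.4; log2 difference 3.25 ± 0.18, limma, adjusted p = 7.52e-21). PAD3, the last enzyme of camalexin synthesis, was highest in Salt + HS (728, 1039 and 923), against 154, 206 and 243 in Salt (log2 difference 2.16 ± 0.17, limma, adjusted p = 1.58e-14), and its HL libraries were 859, 560 and 625, against 417, 388 and 355 in Control. FRK1, a flagellin-induced receptor kinase, had 170, 168 and 221 in HL and 198, 291 and 264 in PQ, against 86.3, 123 and 86.9 in Control. WRKY30, a defence WRKY factor, was lower in PQ + HS (10.1, 12.6 and 7.8) than in PQ (229, 264 and 309) by -4.60 ± 0.28 (limma, adjusted p = 9.11e-19).

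The members with the largest HL to HS ratio also held genes with little known of them. AT2G22590, a UDP-glycosyltransferase, had 2349, 2188 and 2253 in HL, 40.4, 38.7 and 74.1 in HS and 157, 160 and 197 in Control, and rose in Salt + HL + HS (724, 673 and 769) over Salt + HS (69.7, 84.8 and 77.8) by 3.21 ± 0.14 on the log2 scale (limma, adjusted p = 2.58e-24). AT3G24750, of unknown function, had 1031, 1107 and 1103 in HL and 10.1, 14.3 and 6.11 in HL + HS, against 79.9, 94.0 and 98.1 in Control. It was lower in PQ + HS than in PQ by -5.03 ± 0.28 (limma, adjusted p = 1.6e-20). NUDT24, a nudix hydrolase, had 844, 925 and 855 in HL, against 250, 196 and 201 in Control, and was below Control in every other group mean. It rose in Salt + HS (154, 128 and 153), against 16.2, 11.6 and 5.72 in Salt, by 3.68 ± 0.39 (limma, adjusted p = 5.08e-11), and fell in PQ + HS against PQ by 4.22 ± 0.39 (limma, adjusted p = 5.59e-13). The remaining members of this kind were UGT79B1, GSTF12, GPX7, AT4G34550 (an F-box protein), 5MAT, AT5G40790, AT5G15500 (an ankyrin repeat protein) and WRKY30, with HL means 18.4 to 36.3 times their HS means.

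The members with the highest mean normalised count, not divided by gene length, included genes of carbon and amino acid metabolism. FBA1, the plastid aldolase of the Calvin cycle, had 135450, 137293 and 146464 in HL and 45174, 43842 and 46642 in HS, against 72799, 75736 and 82787 in Control. It fell in Salt + HS (58346, 61678 and 67573), against 95332, 88216 and 84491 in Salt, by 0.52 ± 0.06 on the log2 scale (limma, adjusted p = 9.61e-11). GLDP2, the P protein of the glycine decarboxylase of photorespiration, was lower in Salt + PQ + HS than in Salt + PQ by -1.08 ± 0.04 (limma, adjusted p = 5.26e-28). P5CS1, which starts proline synthesis, had 8263, 8077 and 7889 in PQ + HS, against 37273, 38796 and 40633 in PQ, and fell by 2.27 ± 0.03 (limma, adjusted p = 2.01e-41). In Salt + PQ + HS it had 23740, 23737 and 24147, against 19435, 21244 and 19655 in Salt + PQ, a log2 difference of 0.25 ± 0.03 (limma, adjusted p = 9.62e-09) that is -0.34 with the same total. MIPS2, CHS, PAL1, ENODL2 and PAL2 complete the 8 with the highest means.

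The 13 other treatments were then set against Control. These comparisons use the Control libraries of the rule and are no independent check of it. By limma at adjusted p under 0.05 over 21536 genes, PQ had 167 members higher and 6 lower (background over all genes 40.2% higher and 39.0% lower), Salt 132 and 29 (40.5% and 39.1%), and Salt + PQ 113 and 34 (40.2% and 38.5%; 95 and 53 with the same total). Members were mostly lower in Salt + HL, with 2 higher and 164 lower (35.8% and 33.5%), in Salt + HS, with 23 and 106 (35.6% and 33.9%), in PQ + HL, with 35 and 94 (35.9% and 34.4%), and in Salt + PQ + HL + HS, with 6 and 138 (23.3% and 23.6%). Salt + PQ + HL had 39 higher and 79 lower (19.6% and 20.9%) and PQ + HL + HS 62 and 28 (9.65% and 10.1%). The 4 groups richest in heat-shock transcripts gave 87 higher and 76 lower in PQ + HS (42.1% and 42.1%; 43 and 117 with the same total), 68 and 91 in HL + HS (42.7% and 43.2%; 23 and 148), 104 and 54 in Salt + HL + HS (42.9% and 43.0%; 50 and 109) and 96 and 64 in Salt + PQ + HS (42.2% and 42.4%; 43 and 113). The majority thus turned round with the scaling in PQ + HS, Salt + PQ + HS and Salt + HL + HS, and was lower under both in HL + HS. The shares over all genes are those with the size factors. With the same total the median of all genes also falls in these 4 groups, by 0.64 to 0.85 on the log2 scale. The turn is therefore not a result about the members alone.

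In HL + HS, where both stresses of the rule met, members stood on both sides of Control, and the split depended on the scaling. By group means 40 members were at least 1.5 times Control, 70 at most Control divided by 1.5 and 74 between, against 24.2% of all genes higher and 25.1% lower by the same limits. With the same total the counts were 15 higher and 123 lower. The 40 higher members had a median log2 ratio to Control of 1.44 in Salt, 1.45 in PQ + HS, 1.83 with Salt + HL + HS and 1.33 with Salt + PQ + HS, and the 70 lower members 0.01, -1.15, -0.56 and -0.66 in those groups. Both sets were cut by their HL + HS values and share the Control libraries, so these medians are a description. In HS the 2 sets had medians of -0.79 and -1.01, and in Salt + HS of -0.32 and -0.32.

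Whether HL raises these genes on another background was tested in 6 pairs of groups that share no library with the rule. Without heat, the members fell where HL was added: 173 were lower and 4 higher in Salt + HL than in Salt (32.6% of all genes lower, 32.9% higher), with a median log2 difference of -1.36 over the members and 0.01 over all genes. In PQ + HL against PQ, 167 were lower and 2 higher (31.0% and 30.5%), median -1.35, and in Salt + PQ + HL against Salt + PQ 143 were lower and 15 higher (39.6% and 38.3%), median -0.63. These 3 pairs all have as their second group libraries labelled Salt, PQ or Salt + PQ, in which heat-shock genes were above HS. Salt + PQ + HL, the first group of the last pair, lay near Control over all genes, so this fall is also a return towards Control levels. On the heat background, 118 members were higher and 40 lower in Salt + HL + HS than in Salt + HS (40.6% and 41.3%), median 0.70, but 75 and 78 with the same total. This pair has none of the 8 groups. In the fit without 5 of them 117 were higher and 38 lower, and 115 and 42 with only these 2 groups in the fit. Leaving other groups out changes the estimate of spread and not the differences of a pair, so these counts are no check of the labels. The first groups of the pairs that follow, PQ + HL + HS and Salt + PQ + HL + HS, lay near Control over all genes. Heat-shock genes were at the Control level in both. In PQ + HL + HS against PQ + HS, 83 were higher and 79 lower (42.3% and 42.0%; 130 and 38 with the same total), and in Salt + PQ + HL + HS against Salt + PQ + HS 35 were higher and 129 lower (42.7% and 42.4%; 85 and 80).

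The same question for heat gave lower members on 4 of 6 backgrounds. In PQ + HS against PQ, 161 were lower and 13 higher (37.2% and 38.0%), median log2 difference -1.07, and in Salt + HS against Salt 134 were lower and 31 higher (32.2% and 33.4%), median -0.98. In Salt + PQ + HS against Salt + PQ, 97 were lower and 56 higher (39.8% and 39.9%; 133 and 32 with the same total), median -0.29. In Salt + PQ + HL + HS against Salt + PQ + HL, where heat-shock genes took 0.00696% to 0.00839% of reads in both groups, near Control, 101 were lower and 7 higher (14.5% and 15.4%), median -0.30. The members were higher on the other 2 backgrounds. In Salt + HL + HS against Salt + HL, 143 were higher and 13 lower (42.2% and 41.3%), median 1.16, and 107 and 51 with the same total. That count was 142 and 13 in the fit without 5 groups, where again only the estimate of spread differs. That fit still holds Salt + HL, a group at 21°C by label with heat-shock genes above HS. In PQ + HL + HS against PQ + HL, 107 were higher and 32 lower (34.3% and 35.8%), median 0.33. Heat-shock genes took 0.00734% to 0.00767% of reads in PQ + HL + HS, near Control, and 0.795% to 0.858% in PQ + HL. The median log2 ratio of the members to Control was -0.25 in PQ + HL and 0.10 in PQ + HL + HS. PQ + HL + HS lay near Control over all genes, so this rise is also a return towards Control levels.

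**Figure D5:**
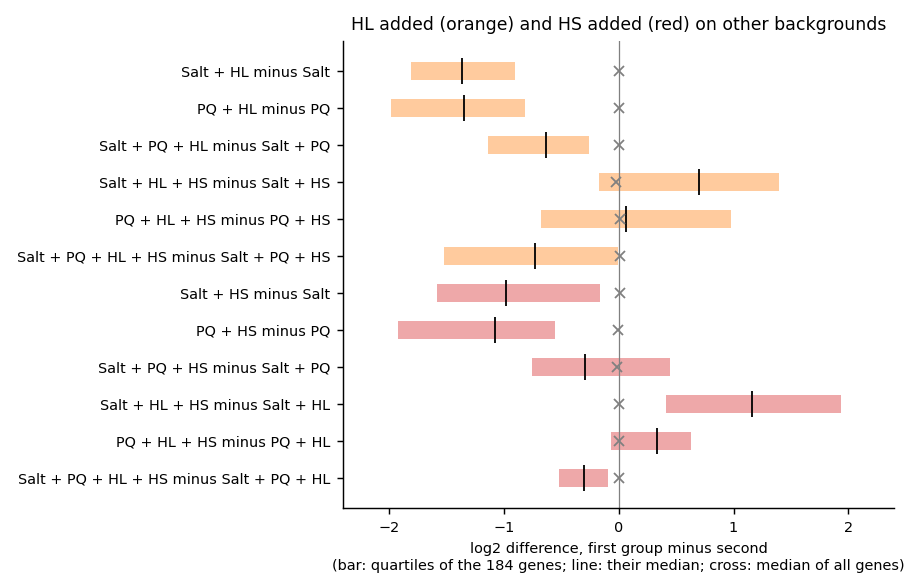
Log2 differences of the 184 genes in the 12 comparisons that use no HL, HS or Control library: HL added (orange, top 6) and HS added (red, bottom 6). Bars span the quartiles of the members, black lines their median, and crosses the median of all 21536 genes. The members lie below 0 where HL was added to Salt, PQ or Salt + PQ, and above 0 where HS was added to Salt + HL.

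The difference between the HL effect with heat and the HL effect without heat was tested as an interaction. On salt plates 152 members were higher and 13 lower (39.9% and 40.2% of all genes), with a median of 1.89 on the log2 scale, and 118 and 36 with the same total. On paraquat plates 157 were higher and 12 lower (36.8% and 38.3%), median 1.44. On plates with both, 60 were higher and 77 lower (35.8% and 37.0%), median -0.07, and 105 and 44 with the same total. For ELIP2 the interaction was 6.75 ± 0.18 on salt (limma, adjusted p = 1.37e-32) and 4.68 ± 0.18 on paraquat (limma, adjusted p = 2.4e-26), and for CHS 3.26 ± 0.11 on salt (limma, adjusted p = 8e-29). MIPS2 had 8.98 ± 0.07 on salt (limma, adjusted p = 5.23e-53). Groups at odds with their labels enter each interaction. They are Salt and Salt + HL on salt, and PQ, PQ + HL and PQ + HL + HS on paraquat. On plates with both they are Salt + PQ and Salt + PQ + HL + HS. In PQ + HL + HS and Salt + PQ + HL + HS, the groups with HL and heat there, heat-shock genes were at the Control level.

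No member followed the rule's directions on all backgrounds. Of the 6 HL comparisons, 14 members were called higher in 3, 53 in 2, 109 in 1 and 8 in none, and of the 6 HS comparisons 5 members were called lower in 5, 60 in 4, 56 in 3, 43 in 2, 19 in 1 and 1 in none. Over all genes, 30.5% to 42.7% were called higher in each HL comparison and 14.5% to 41.3% lower in each HS comparison. Calls in these directions were thus common in genes at large. How many of all genes reach each number of calls was not counted. The gene with the most calls in the rule's directions was MS2 (AT3G03780, methionine synthase 2), with 8 of 12. MS2 and the genes after it were picked by their calls in these same 12 comparisons. Their differences and p-values below are therefore a description and no independent test. MS2 had 4540, 5243 and 5459 in Salt + HS, against 12993, 13106 and 12615 in Salt, and fell by 1.35 ± 0.04 on the log2 scale (limma, adjusted p = 4.23e-28). It fell by 1.45 ± 0.04 in PQ + HS against PQ (limma, adjusted p = 1.01e-29) and by 1.44 ± 0.04 in Salt + PQ + HS against Salt + PQ (limma, adjusted p = 8.64e-30). With HL it was higher in PQ + HL + HS than in PQ + HS by 1.52 ± 0.04 (limma, adjusted p = 4.52e-31) and in Salt + PQ + HL + HS than in Salt + PQ + HS by 0.82 ± 0.04 (limma, adjusted p = 4.02e-21). The difference of Salt + HL + HS from Salt + HS was 0.10 ± 0.04 (limma, adjusted p = 0.0411), and -0.62 with the same total. GA3OX2 (which makes active gibberellin), ProT3 (a proline transporter), ATCAD4, BGLU6 and AT1G60590 (a pectin lyase-like protein) followed with 7 calls each, as did AT1G06550 and ADT5, which the rule for named genes left out for their smaller median difference. GA3OX2 fell by 2.80 ± 0.20 in PQ + HS against PQ (limma, adjusted p = 7.43e-17) and by 1.65 ± 0.20 in Salt + HL + HS against Salt + HL (limma, adjusted p = 3.42e-10), a comparison in which most members were higher. ProT3 fell in the same comparison by 0.85 ± 0.08 (limma, adjusted p = 2.98e-13), with 231, 227 and 205 in Salt + HL + HS and 366, 401 and 433 in Salt + HL.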

How the data were processed

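The study sequenced RNA from 48 seedling libraries in 16 groups of 3. Per the methods, reads were checked with FastQC 0.11.7, aligned with STAR 2.4.0.1 (10 mismatches, 9 multi-mapping positions) to TAIR build 10 and normalised with DESeq2 1.20.0. The deposited signal values are these counts divided by one size factor per library, by the authors. All values (100%) came out as whole reads at a tolerance of 0.001 reads once the size factors (0.594 to 1.34) were recovered.

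Here log2(normalised count + 1) of 21536 genes with a mean of at least 10 was fitted in one limma 3.58.1 trend model of the 16 groups (R 4.3.3), with Benjamini-Hochberg adjusted p under 0.05 in each comparison. Fold changes on that scale understate the change of low genes. edgeR 4.0.16 and DESeq2 1.42.0 on the recovered reads were alternatives, beside other pseudocounts, filters, scalings, fits and left-out libraries. Tested on simulated data for Salt + HL against Salt (21536 genes), the fit called 30% of genes changed 1.25-fold, 88% at 1.5-fold, 94% at 2-fold and 100% at 4-fold. The simulation gave all genes the same dispersion. In the data the SE of a log2 difference was 0.04 for HYH and 0.39 for NUDT24, so these shares do not carry over to genes with a larger spread.

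Replicates differed beyond sampling noise in every pair (chi-square per degree of freedom 1.86 to 16.5), and p-values measure the spread between these pools. The genes named are the 12 with the highest HL to HS ratio, the 8 with the highest mean, the members on 17 lists, 6 of the 8 called most often in the rule's directions (ties at 7 calls ordered by the median difference) and the genes nearest the limits. Others are said to be picked after their values were seen. The members and lists were chosen with earlier results of these data known. Gene positions, names and upstream bases came from RefSeq TAIR10.1. Of the 184 members, those with under 90% unique 50-base words (AT4G27560, CYP89A6, AT3G23510 and AT1G50390) share sequence with other genes, so their counts are uncertain.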

Additional observations from a re-analysis of the deposited data

Results flagged for a closer look

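The effect of HL with heat and its effect without heat were set against each other by the interaction test in limma. On salt plates 152 members were called higher in Salt + HL + HS minus Salt + HS than in Salt + HL minus Salt (39.9% of all genes), and on paraquat plates 157 in the like difference (36.8%). On plates with both, 77 were called lower (37.0% of all genes) and 60 higher, and with the same total 44 lower and 105 higher, so no direction of the members holds there. Among single genes the log2 interaction was 3.26 for CHS on salt, 6.75 on salt and 4.68 on paraquat for ELIP2, and 8.98 for MIPS2 on salt. Each of these comparisons holds libraries labelled Salt, PQ or Salt + PQ, whose heat-shock genes were above those of HS. Salt + HL and PQ + HL, also above HS, enter those on salt and on paraquat. In PQ + HL + HS and Salt + PQ + HL + HS, the groups with HL and heat on the other plates, heat-shock genes were at the Control level. The part of all these libraries in the differences was not tested.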

How the results depend on the processing

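Of 584 counts recomputed under an alternative, 563 stayed within 1.5 times the value in the report and 21 did not. With the same total of reads in each library, members higher were 75 in Salt + HL + HS minus Salt + HS, 130 in PQ + HL + HS minus PQ + HS, and, against Control, 50 in Salt + HL + HS, 43 in PQ + HS and 43 in Salt + PQ + HS. Members lower were 80 in Salt + PQ + HL + HS minus Salt + PQ + HS, 44 in the interaction on plates with both and 148 in HL + HS against Control, and 15 members were higher and 123 lower in HL + HS at 1.5-fold means. Asking also for a 1.5-fold difference left 61 lower in Salt + PQ + HS minus Salt + PQ, 55 higher in PQ + HL + HS minus PQ + HL and 41 lower in Salt + PQ + HL + HS minus Salt + PQ + HL. Against Control it left 75 higher in Salt + PQ, 13 higher in PQ + HL + HS, and 49 lower in Salt + HS, 43 in PQ + HL, 43 in Salt + PQ + HL and 76 in Salt + PQ + HL + HS. The other direction and the shares over all genes at this limit are not given. These counts therefore show how far the report depends on the limit, not how members differ from genes at large. The rule took 42 genes at 2-fold and 279 at a mean of at least 10. Leaving out replicates moved no count by over 1.5 times.

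Among single genes 665 values kept their side, 6 lost their call and 6 turned round: P5CS1 in Salt + PQ + HS minus Salt + PQ (-0.34 with the same total, -0.16 by quantiles), MS2 in Salt + HL + HS minus Salt + HS (-0.62 and -0.19), PAL1 there (-0.021 with the same total) and FBA1 there (-0.13 by quantiles). The cause was not tested.

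Replicate numbers did not pair the libraries: the mean correlation of deviations was -0.00029 for libraries with the same number and 0.00015 for others, and 11 of 48 libraries correlated best with their own number. With the replicate block, 173 members were lower in Salt + HL minus Salt, 118 higher in Salt + HL + HS minus Salt + HS and 143 higher in Salt + HL + HS minus Salt + HL.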
